A study of Mus musculus with 10 samples.

Results

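Tumours grown from RENCA, a mouse kidney cancer cell line, were examined for 10 genes of the T cell receptor complex, its coreceptors and the cytotoxic granule. The genes were chosen by name: Cd3g, Cd3d and Cd3e for the CD3 chains, Cd4, Cd8a and Cd8b1 for the coreceptors, and Gzma, Gzmb, Prf1 and Nkg7 for cytotoxic effectors. The count table held 18603 genes, among them 9 of the 10, and Cd8b1 was not analysed here. Genes said below to have counts are those with a row in this table. A listed gene without a row may still have had reads. SLR14 tumours received 3 intratumoral injections, 48 h apart, of lipid nanoparticles carrying SLR14, a triphosphorylated stem-loop RNA that activates the viral RNA sensor RIG-I, in 50 µL of PBS. PBS tumours are labelled with PBS alone, so the RNA and its lipid carrier are compared together with PBS. All animals were female Balb/c mice with subcutaneous tumours of 100 to 150 mm3 when randomized, and each group held 5 tumours from 5 mice, taken 24 h after the last injection. The dose of SLR14 and the age of the mice were not given in the sources used here.

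The T cell receptor recognises peptides through its variable chains and signals through the invariant CD3 chains, whose tails are phosphorylated by the kinase LCK and then bind the kinase ZAP70. CD4 and CD8 bind class II and class I major histocompatibility molecules and bring LCK to the receptor. Killer T cells and natural killer cells carry granules with perforin, which makes pores in a target cell, and granzymes, proteases that enter through them and start its death. In tumours these genes are read as signs of T cells and killer cells, although in the mouse some dendritic cells also make CD4 or CD8α, and mast cells and natural killer cells make granzymes.

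Total counts ranged from 17931895 to 39842608 per tumour, with a mean of 28006627 in SLR14 and 28740052 in PBS tumours (two-sided exact permutation test, p = 0.881). On the first principal component of log2 CPM, which held 28.3% of the variance, SLR14 2 at 42.1 and PBS 5 at -58.1 stood farthest from the others of their groups, and PBS 3 was at -28.6. The quasi-likelihood test of edgeR was applied to 15883 genes, and 107 were higher and 46 lower in SLR14 tumours at a Benjamini-Hochberg adjusted p of 0.05, together 0.963%. The labelled tissue was checked against 11 renal epithelial and carcinoma genes, all of which had counts. Their mean levels differed widely, from 0.406 CPM in SLR14 and 0.307 CPM in PBS tumours for Lhx1 to 2727 and 2303 CPM for Vim. Log2 fold changes were positive for 7 of the 11, and Cdh16 was lower in SLR14 tumours without passing (-0.52, edgeR adjusted p = 0.0788). Pax8, a kidney lineage factor, had 103 ± 6.92 CPM in SLR14 and 92.2 ± 16.7 CPM in PBS tumours, and 1 of the 11 passed the test, the adhesion molecule Epcam, which fell to 0.617 ± 0.502 CPM in SLR14 tumours, against 3.45 ± 1.62 CPM in PBS tumours (log2 fold change -2.42, SE 0.49, edgeR adjusted p = 0.0324; 0.0547 to 0.0936 without PBS 1, 3 or 4 or SLR14 1, 2, 3 or 4, and lost too without PBS 5 and SLR14 2 together). CPM are counts scaled to a common library size with TMM factors, and ± gives the SD over 5 tumours.

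Of the 9 genes with counts, 8 had a higher mean CPM in SLR14 tumours and Cd4 a lower one. Over all tested genes, 48.0% had a positive log2 fold change. Only Gzma and Gzmb passed the test, 2 of 6 tested members, where 0.674% of all tested genes rose and 0.29% fell. At an unadjusted p under 0.05, 5 of the 6 were higher, against 5.4% of all tested genes (10.8% in either direction, the background for the gene lists described further on). DESeq2 called 6 members and 2.19% of its genes, 1.35% as higher, and limma voom 1 member and 0.913% of genes. Apart from Cd4, the tested members passed the low-count filter mainly through the SLR14 tumours, where 4 or 5 of 5 reached its limit of 0.373 CPM, against 0 or 1 of 5 PBS tumours, so the count of calls among them is not evidence about the group of genes. A filter blind to group, a mean count of at least 10, gave the same 2 calls, but these genes met it mainly through the SLR14 tumours too. Summed over tumours, Gzma had 172 counts in SLR14 and 38 in PBS, and Gzmb 159 and 29. This filter therefore does not lift the limit. Counts were low, from 0 to 72 for every member other than Cd4. In whole tumours, more cells of a type and more RNA per cell cannot be told apart.

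**Figure D1:**
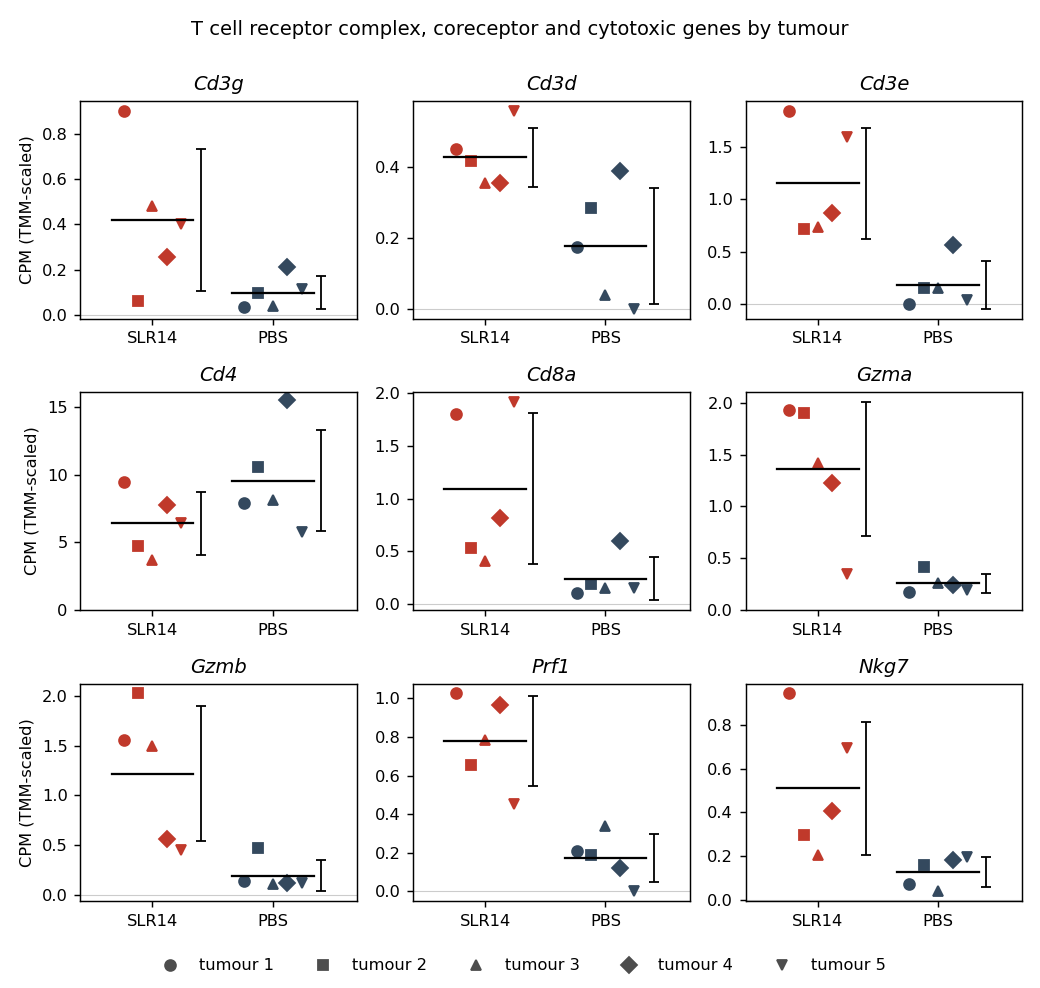
CPM of each of the 9 members (y axis, linear, scale differs by gene) in the 5 SLR14 tumours (left, red) and the 5 PBS tumours (right, dark), with the group mean as a line and the SD as a bar. Symbols give the tumour number within a group and pair nothing. Cd3e, Prf1 and Nkg7 do not overlap between groups, and Cd4 has a higher mean in PBS tumours. Of all tested genes, 1.92% separate with SLR14 higher, and Nkg7 is not among those tested.

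The CD3 chains were close to the limit of counting in PBS tumours. Cd3e, the CD3 epsilon chain, had 45, 12, 29, 17 and 60 counts in SLR14 tumours 1 to 5 and 0, 5, 4, 19 and 1 counts in PBS tumours 1 to 5. Scaled for depth, every SLR14 tumour (0.714 to 1.85 CPM) lay above every PBS tumour (0 to 0.569 CPM), where 1.92% of all tested genes were separated in this direction and 1.32% in the other. The log2 fold change of 2.57 (SE 0.62) missed the threshold (edgeR adjusted p = 0.0791). PBS 4 stood above the other PBS tumours, and without it Cd3e passed with a log2 fold change of 3.65 (edgeR adjusted p = 0.0110). The call was also made by DESeq2 (adjusted p = 0.00283) and by limma voom (adjusted p = 0.0400).

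Cd3g and Cd3d, the gamma and delta chains, fell below the low-count filter and were not tested in the main comparison. Cd3g had 22, 1, 19, 5 and 15 counts in SLR14 tumours and 1, 3, 1, 7 and 3 counts in PBS tumours. SLR14 2, at a single count, lay within the PBS range, and the other 4 SLR14 tumours lay above it in CPM. Cd3d had 11, 7, 14, 7 and 21 counts in SLR14 tumours and 5, 9, 1, 13 and 0 counts in PBS tumours. Its groups overlapped, since PBS 4 at 0.389 CPM exceeded the lowest SLR14 tumours at 0.355 and 0.357 CPM. The ratio of mean CPM, SLR14 over PBS, was 4.25 for Cd3g and 2.41 for Cd3d. Fitted with no filter, neither passed (log2 fold change 2.05, edgeR adjusted p = 0.210 for Cd3g, and 1.21, edgeR adjusted p = 0.514 for Cd3d). In the RefSeq annotation of GRCm38.p6, Cd3g and Cd3d are transcribed away from each other from start sites 1355 bases apart on chromosome 9, and Cd3e starts 27825 bases from Cd3d.

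Among SLR14 tumours the 3 chains spread unequally. Cd3d varied by 1.57 times between the lowest and highest SLR14 tumour, no more than counting error (chi-square per degree of freedom 0.554 over the 5 tumours), while Cd3e varied by 2.58 times (chi-square per degree of freedom 6.49) and Cd3g by 15.2 times (4.68). In PBS tumours PBS 4 held the highest value of all 3 chains.

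Other genes of the receptor and its first signalling steps were read from a list of 27, of which 22 had counts, 13 were tested and 0 passed (edgeR; 5 at an unadjusted p under 0.05, 2 by DESeq2, 0 by limma voom). The list's median log2 fold change was 0.27, with 10 of 13 positive, against a median of -0.01 over all tested genes. The smallest p-values belonged to Cd6, a receptor of T cells, at 0.986 ± 0.513 CPM in SLR14 and 0.297 ± 0.105 CPM in PBS tumours (edgeR adjusted p = 0.0942, log2 fold change 1.72, SE 0.43), and to Themis, a T cell development protein, at 47.8 ± 3.41 CPM in SLR14 and 66.9 ± 13.1 CPM in PBS tumours (log2 fold change -0.49, SE 0.12, edgeR adjusted p = 0.0942). DESeq2 called both, and Themis also passed without PBS 5.

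The receptor's own constant chains were sparse, and are named here after their values were seen. Trac, the alpha chain, had 17, 2, 11, 6 and 15 counts in SLR14 tumours and 4, 5, 1, 5 and 1 counts in PBS tumours. Trbc1 and Trbc2, the beta chains, had 3 to 20 and 9 to 16 counts in SLR14 tumours, against 0 to 7 and 2 to 8 counts in PBS tumours. None was tested in the main comparison, and with no filter none passed (edgeR adjusted p = 0.240 for Trac, 0.505 for Trbc1 and 0.130 for Trbc2). Trdc, the delta chain, had 0 to 9 counts in SLR14 and 2 to 8 counts in PBS tumours.

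Not every gene of the receptor pathway was at the level of the CD3 chains. Per kb of exon, mean levels in SLR14 and PBS tumours were 0.282 and 0.0449 CPM for Cd3e, 0.385 and 0.112 CPM for Trac, and 0.154 and 0.183 CPM for Cd247, the zeta chain. Lck reached 2.82 CPM per kb in SLR14 and 2.44 CPM per kb in PBS tumours, and Themis 4.09 and 5.73 CPM per kb. Lck and Themis thus had more RNA per length than the receptor chains themselves in both groups, and neither passed the test (edgeR adjusted p = 0.580 and 0.0942).

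**Figure D2:**
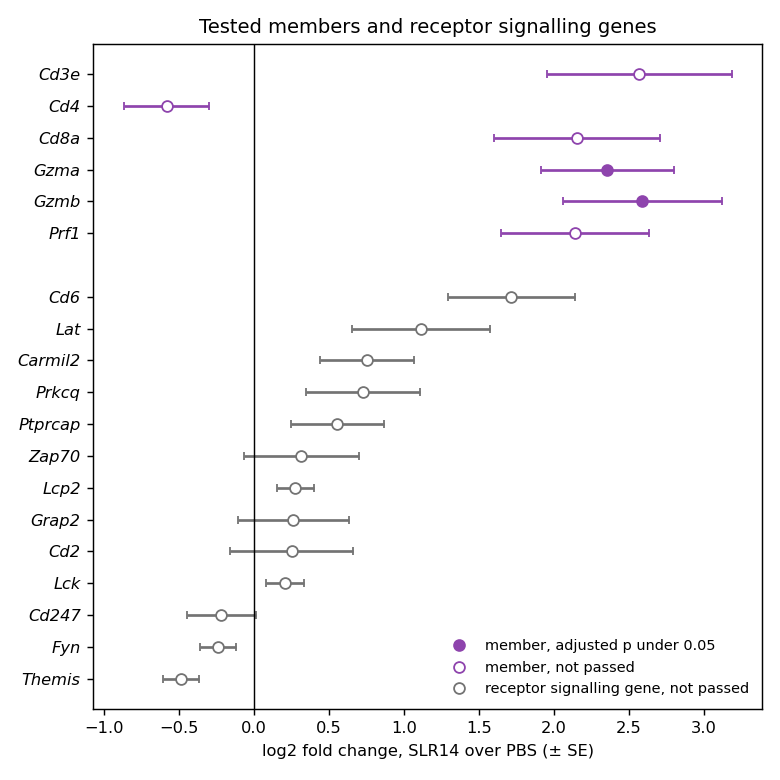
Log2 fold change of SLR14 over PBS with its SE (x axis) for the 6 tested members (purple, top) and the 13 tested receptor signalling genes (grey, bottom). Filled points passed an adjusted p of 0.05, which holds for Gzma and Gzmb, and Cd4, Cd247, Fyn and Themis lie below 0.

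The coreceptors had mean differences of opposite sign, and neither passed the test. Cd8a, the CD8 alpha chain, had 44, 9, 16, 16 and 72 counts in SLR14 tumours and 3, 6, 4, 20 and 4 counts in PBS tumours. SLR14 1 and 5 were highest at 1.80 and 1.92 CPM, and the groups overlapped through PBS 4 at 0.599 CPM, above SLR14 2 and 3 at 0.536 and 0.406 CPM. The log2 fold change was 2.15 (SE 0.55, edgeR adjusted p = 0.111). Without PBS 4 it was 2.85 and passed (edgeR adjusted p = 0.0376), and DESeq2 called it with all tumours (adjusted p = 0.0106).

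Cd4 had 231, 79, 145, 153 and 240 counts in SLR14 tumours and 226, 333, 216, 518 and 148 counts in PBS tumours. It averaged 6.41 ± 2.33 CPM in SLR14 and 9.56 ± 3.74 CPM in PBS tumours (log2 fold change -0.58, SE 0.28, edgeR adjusted p = 0.483). The groups overlapped, although SLR14 2 and 3 lay below every PBS tumour and PBS 4 and PBS 2 above every SLR14 tumour. Without PBS 4 the log2 fold change shrank to -0.34 (edgeR adjusted p = 0.584).

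Per kb of exon, Cd4 averaged 1.59 CPM in SLR14 and 2.37 CPM in PBS tumours, against 0.301 and 0.0659 CPM for Cd8a and 0.282 and 0.0449 CPM for Cd3e. Cd4 RNA per length therefore exceeded that of Cd8a and Cd3e in both groups. Cd8a counts were 19.0%, 11.4%, 11.03%, 10.5% and 30.0% of Cd4 counts in SLR14 tumours 1 to 5, and 1.33%, 1.80%, 1.85%, 3.86% and 2.70% in PBS tumours 1 to 5. This ratio did not overlap between the groups, although Cd8a alone did, and in PBS tumours it rests on 3 to 20 Cd8a counts. It is given with no test because it combines 2 of the chosen genes, and how often other gene ratios separate so was not computed. Cd8a and Cd3e counts stayed within 0.552 to 1.20 of each other (Cd8a over Cd3e) in SLR14 tumours and 1.00 to 4.00 in the 4 PBS tumours with a Cd3e count.

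**Figure D3:**
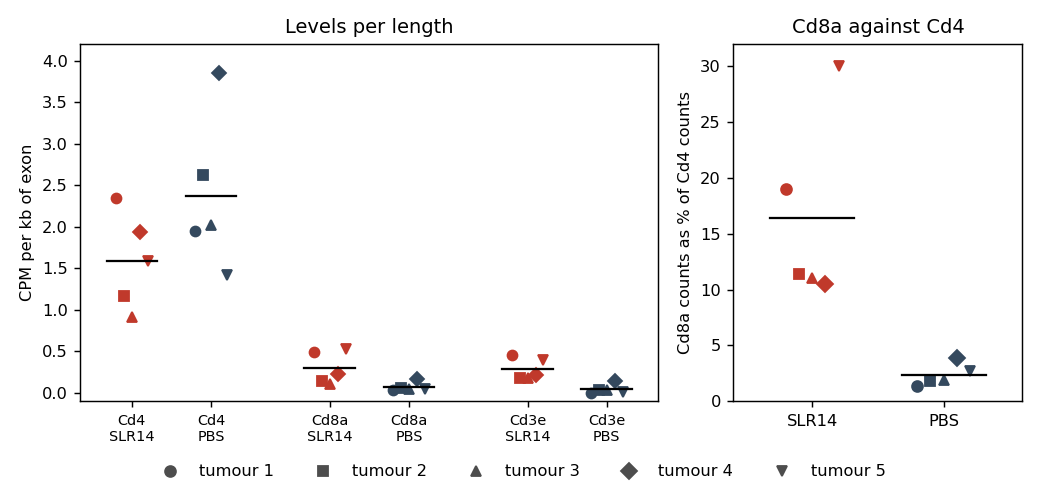
Left, CPM per kb of exon of Cd4, Cd8a and Cd3e in each SLR14 (red) and PBS (dark) tumour with group means as lines, where Cd4 lies above the other genes in both groups. Right, Cd8a counts as a percent of Cd4 counts, from 10.5 to 30.0% in SLR14 tumours and from 1.33 to 3.86% in PBS tumours.

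Macrophages, monocytes and type 1 conventional dendritic cells were read beside Cd4 and Cd8a. Genes of other conventional dendritic cells were not listed. All 12 macrophage and monocyte genes had counts, with a summed level of 1958 to 2399 CPM in SLR14 and 2005 to 2441 CPM in PBS tumours, and 0 of 12 passed in edgeR (2 at an unadjusted p under 0.05, 1 by DESeq2, 0 by limma voom). The smallest p were those of Ly6c2, a monocyte antigen, and Fcgr1, an Fc receptor (edgeR adjusted p = 0.239 and 0.429). Ly6c2 passed without SLR14 3, its lowest SLR14 tumour (log2 fold change 1.51, edgeR adjusted p = 0.00239). Of 9 genes of type 1 conventional dendritic cells, 7 were tested and 0 passed in edgeR (1 at an unadjusted p under 0.05, 0 by DESeq2 and limma voom), with sums of 204 to 291 CPM in SLR14 and 192 to 250 CPM in PBS tumours, the smallest p being those of Cadm1 and Itgae (edgeR adjusted p = 0.270 and 0.564). Their defining genes were sparse: Xcr1 had 4 to 10 counts in SLR14 and 2 to 28 counts in PBS tumours, and Clec9a had 0 to 6 and 4 to 12 counts. The part of these cells in Cd4 and Cd8a levels was not tested.

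The granzymes were the members that passed the test, although Cd3e, Cd8a and Prf1 had log2 fold changes of like size (2.57, 2.15 and 2.14). Gzma, granzyme A, had 47, 32, 56, 24 and 13 counts in SLR14 tumours and 5, 13, 7, 8 and 5 counts in PBS tumours. It averaged 1.36 ± 0.646 CPM in SLR14 and 0.257 ± 0.0941 CPM in PBS tumours, and all SLR14 tumours but SLR14 5 lay above every PBS tumour. SLR14 5 at 0.346 CPM (exact Poisson 95% interval 0.184 to 0.592, counting error only) lay below SLR14 1 at 1.93 CPM (1.42 to 2.56) by more than counting error and below PBS 2 at 0.413 CPM (0.220 to 0.705) by less. The log2 fold change was 2.35 (SE 0.44, edgeR adjusted p = 0.0241).

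Gzmb, granzyme B, had 38, 34, 59, 11 and 17 counts in SLR14 tumours and 4, 15, 3, 4 and 3 counts in PBS tumours. Its mean was 1.22 ± 0.682 CPM in SLR14 and 0.193 ± 0.159 CPM in PBS tumours. SLR14 1, 2 and 3 were at 1.50 to 2.02 CPM, while SLR14 4 and 5 were at 0.560 and 0.453 CPM, and SLR14 5 lay below PBS 2, the highest PBS tumour at 0.476 CPM. The log2 fold change was 2.59 (SE 0.53, edgeR adjusted p = 0.0361). Neither call held in every fit without 1 tumour. Gzma missed the threshold when PBS 1, 3 or 4 or SLR14 1, 3 or 4 was left out (edgeR adjusted p up to 0.0759). Gzmb missed it when PBS 1, 3, 4 or 5 or SLR14 1, 2 or 3 was left out (edgeR adjusted p up to 0.108). Without 1 tumour the log2 fold change ran from 2.18 to 2.62 for Gzma and from 2.36 to 3.25 for Gzmb, and 69 to 194 of all genes were called. Leaving out both PBS 5 and SLR14 2 gave edgeR adjusted p of 0.0612 for Gzma and 0.0916 for Gzmb, and limma voom called neither (adjusted p = 0.140 and 0.0647).

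The promoters of these 2 genes are shown because both passed the test. The letters are from RefSeq on GRCm38.p6, whereas the submitters used another build. Each window runs from 250 bases before to 50 bases after the annotated start, on the minus strand, and capitals mark the RUNX motif TGTGGT on either strand.
Gzma, chr13:113100932-113101231: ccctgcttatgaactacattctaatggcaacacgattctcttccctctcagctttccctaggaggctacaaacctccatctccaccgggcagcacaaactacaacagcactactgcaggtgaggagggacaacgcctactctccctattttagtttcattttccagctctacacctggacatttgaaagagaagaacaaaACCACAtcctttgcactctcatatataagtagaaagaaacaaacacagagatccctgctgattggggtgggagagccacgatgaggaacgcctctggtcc
Gzmb, chr14:56262285-56262584: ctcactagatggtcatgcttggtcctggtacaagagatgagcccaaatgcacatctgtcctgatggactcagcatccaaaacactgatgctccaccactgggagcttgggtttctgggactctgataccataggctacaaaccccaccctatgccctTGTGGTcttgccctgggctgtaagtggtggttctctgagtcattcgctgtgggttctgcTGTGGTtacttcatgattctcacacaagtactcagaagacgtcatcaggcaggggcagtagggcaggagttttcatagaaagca

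The RUNX motif, bound by a family of factors that includes RUNX3 of killer cells, began at base 201 of the Gzma window, read on the opposite strand, and at bases 158 and 217 of the Gzmb window. It was present in 4 of the 8 members with a promoter in the table (Gzma, Gzmb, Prf1 and Nkg7) and in 16.8% of 32851 mouse promoter windows of the same length, counting both strands. The other motifs searched were the E-box CANNTG (8 of 8 members, 72.3% of all windows), the interferon response core, GAAA, any 2 bases and GAAA (1 of 8, Gzma at base 154 of its window; 3.44%) and the STAT motif TTCNNNGAA (3 of 8, Cd3d, Gzmb and Nkg7; 8.3%). In the 2 windows shown, no RUNX match overlapped a match of another motif. Runx3 itself was at 18.9 ± 3.33 CPM in SLR14 and 17.5 ± 5.07 CPM in PBS tumours (edgeR adjusted p = 0.830).

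Prf1 encodes perforin. It had 25, 11, 31, 19 and 17 counts in SLR14 tumours and 6, 6, 9, 4 and 0 counts in PBS tumours. Every SLR14 tumour (0.453 to 1.03 CPM) lay above every PBS tumour (0 to 0.339 CPM), where 1.92% of all tested genes were separated in this direction. Among SLR14 tumours Prf1 had a smaller coefficient of variation (30.0%) than Gzma (47.3%) or Gzmb (56.0%). The log2 fold change was 2.14 (SE 0.49), and the gene did not pass (edgeR adjusted p = 0.0657). It passed in DESeq2 (adjusted p = 0.00178) and without PBS 5, the tumour with no count (edgeR adjusted p = 0.0434).

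Nkg7, a granule membrane protein of killer cells, had 23, 5, 8, 8 and 26 counts in SLR14 tumours and 2, 5, 1, 6 and 5 counts in PBS tumours. In CPM the groups did not overlap, but narrowly: the lowest SLR14 tumour was at 0.203 CPM (exact Poisson 95% interval 0.0877 to 0.400) and the highest PBS tumour at 0.194 CPM (0.0629 to 0.452). The share of 1.92% separated in this direction covers tested genes only, and Nkg7 was not tested in the main comparison. The ratio of mean CPM was 3.98. Nkg7 fell below the low-count filter, and with no filter it did not pass in edgeR (log2 fold change 1.95, adjusted p = 0.147), while DESeq2 gave an adjusted p of 0.0483.

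Within the SLR14 group the summed cytotoxic genes and the summed CD3 chains did not rank the tumours alike. Summed over Gzma, Gzmb, Prf1 and Nkg7, SLR14 tumours 1 to 5 had 5.46, 4.88, 3.91, 3.16 and 1.95 CPM and PBS tumours 1 to 5 had 0.592, 1.24, 0.754, 0.658 and 0.503 CPM. Summed over Cd3d, Cd3e and Cd3g, SLR14 tumours had 3.20, 1.19, 1.57, 1.48 and 2.56 CPM and PBS tumours had 0.209, 0.539, 0.226, 1.17 and 0.155 CPM. SLR14 5 was thus second highest of all 10 tumours for CD3 chains and lowest of the SLR14 tumours for cytotoxic genes, while SLR14 2 was lowest of the SLR14 tumours for CD3 chains and second highest for cytotoxic genes. Gzma and Gzmb made up most of the cytotoxic sum in SLR14 1 to 4, and Nkg7 alone was highest in SLR14 1 and 5 (0.943 and 0.693 CPM), the same tumours as the CD3 sum.

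Counts of the 4 cytotoxic genes over those of the 3 CD3 chains, not set per length and so read only between tumours, were 1.71, 4.10, 2.48, 2.14 and 0.760 in SLR14 tumours and 2.83, 2.29, 3.33, 0.564 and 3.25 in PBS tumours. The ranges overlapped almost wholly. SLR14 5 and PBS 4 had the lowest ratios, and both also held the highest Cd8a count of their group. Ptprc, the leukocyte antigen CD45, was at 72.8 to 85.6 CPM in SLR14 and 70.8 to 88.1 CPM in PBS tumours (edgeR adjusted p = 0.826). Set against Ptprc counts as a ratio in percent, the CD3 chains amounted to 1.63 to 3.74% in SLR14 and 0.215 to 1.48% in PBS tumours, and the cytotoxic genes to 2.67 to 6.69% and 0.699 to 1.40%. Both ratios were without overlap between groups, but narrowly for the CD3 chains. There SLR14 2 at 1.63% rested on 20 CD3 counts and PBS 4 at 1.48% on 39. Both are given with no test because they combine chosen genes, and how often other gene sums separate so was not computed.

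**Figure D4:**
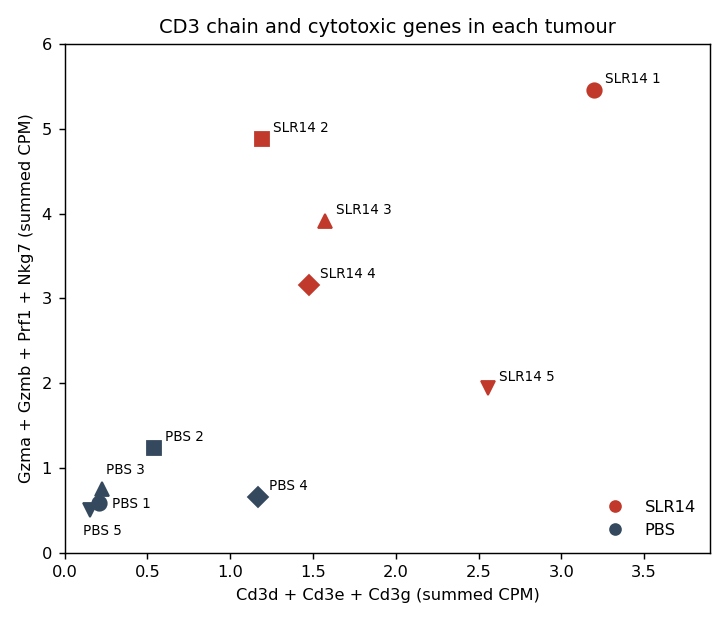
Summed CPM of Cd3d, Cd3e and Cd3g (x axis) against summed CPM of Gzma, Gzmb, Prf1 and Nkg7 (y axis), 1 point per tumour, SLR14 in red and PBS in dark. SLR14 5 lies low on the y axis for its CD3 sum, and PBS 4 at 1.17 CPM has a CD3 sum just under that of SLR14 2 at 1.19 CPM.

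Of 21 other granzyme and granule genes listed, 13 had counts, 11 were tested, 1 rose, 0 fell and 10 did not pass (edgeR; 4 at an unadjusted p under 0.05, 3 by DESeq2, 1 by limma voom), where 0.963% of all tested genes were called. The median log2 fold change of those tested was 0.10, with 6 of 11 positive. The gene that rose was Ctsc, cathepsin C, the protease that activates progranzymes and is also made by myeloid cells. It averaged 278 ± 23.0 CPM in SLR14 and 200 ± 21.6 CPM in PBS tumours (log2 fold change 0.48, SE 0.10, edgeR adjusted p = 0.0432). It missed the threshold with upper-quartile factors and when PBS 1, 2, 3 or 4 or SLR14 1, 3, 4 or 5 was left out (edgeR adjusted p 0.0582 to 0.148). Granule genes closer to killer cells were sparse, and 2 are named after their values were seen. Ctsw, cathepsin W, had 6 to 35 counts in SLR14 and 1 to 11 counts in PBS tumours (log2 fold change 2.11, SE 0.49, edgeR adjusted p = 0.0701). Gzmm, granzyme M, had the lower mean in SLR14 tumours, 0.656 ± 0.228 CPM against 0.834 ± 0.348 CPM in PBS tumours (log2 fold change -0.37, SE 0.37, edgeR adjusted p = 0.719).

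T cell identity genes showed no shared direction. Of 16 listed, 12 were tested and 0 passed in edgeR (4 at an unadjusted p under 0.05, 3 by DESeq2, 0 by limma voom), with 5 of 12 positive and a median log2 fold change of -0.08. Gimap3, a lymphocyte GTPase, was among those with the smallest p (log2 fold change 1.89 and edgeR adjusted p = 0.0908), and passed without PBS 4 (edgeR adjusted p = 0.0196). Among effector transcription factors 9 of 15 were tested and 0 passed (edgeR; 0 at an unadjusted p under 0.05, and 0 by DESeq2 and limma voom), with Id3 and Id2 having the smallest p (edgeR adjusted p = 0.464 and 0.562). Among T cell cytokine and homing receptors 14 of 17 were tested and 0 passed (edgeR; 4 at an unadjusted p under 0.05, 0 by DESeq2 and limma voom), the smallest p being those of Il2rb and Il18rap, receptor chains for interleukins 15 and 18 (log2 fold change 0.97, edgeR adjusted p = 0.207, and 0.43, edgeR adjusted p = 0.258).

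Other cells that can make granzymes were read from their markers. Of 16 natural killer cell genes, 8 had counts, 5 were tested and 0 passed in edgeR (2 at an unadjusted p under 0.05, 0 by DESeq2 and limma voom), and their sum was 12.6 to 18.6 CPM in SLR14 and 10.2 to 16.0 CPM in PBS tumours, most of it Il18rap. Ncr1, the receptor NKp46 that defines these cells, had 8, 3, 7, 5 and 4 counts in SLR14 tumours and 3, 16, 1, 0 and 0 counts in PBS tumours. With no filter Ncr1 did not pass (log2 fold change 0.59, edgeR adjusted p = 0.821). PBS 2 held the highest Ncr1 count of all tumours and the highest Gzmb of the PBS tumours, at 15 counts. The SLR14 tumours, with fewer Ncr1 counts than PBS 2, had 11 to 59 Gzmb counts. Klrk1, the activating receptor NKG2D, had 10 to 53 counts in SLR14 and 8 to 36 counts in PBS tumours (edgeR adjusted p = 0.358).

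Of 10 mast cell genes, 2 had a row in the count table and 0 passed in edgeR (1 at an unadjusted p under 0.05, 1 by DESeq2, 0 by limma voom). The 8 without a row were Cma1, Cpa3, Fcer1a, Mcpt4, Mcpt8, Ms4a2, Tpsab1 and Tpsb2, so the list was read from 2 genes only. The 2 were Hdc at 4.83 ± 1.55 CPM in SLR14 and 2.47 ± 0.787 CPM in PBS tumours (edgeR adjusted p = 0.127) and Kit (edgeR adjusted p = 0.929). Hdc, which makes histamine, passed without PBS 5 (edgeR adjusted p = 0.0368), without PBS 5 and SLR14 2 together (0.0402) and in DESeq2 (adjusted p = 0.0106). Their sum was 5.76 to 10.1 CPM in SLR14 and 3.77 to 6.85 CPM in PBS tumours. Of 9 plasmacytoid dendritic cell genes, 5 were tested and 1 rose, Bst2, which interferon also induces (edgeR adjusted p = 0.00205, log2 fold change 1.39, SE 0.18). Bst2 alone averaged 151 ± 33.1 CPM in SLR14 and 57.4 ± 12.3 CPM in PBS tumours, and the other 4 tested genes did not pass. With Bst2, the plasmacytoid dendritic cell list summed to 295 to 365 CPM in SLR14 and 199 to 255 CPM in PBS tumours. Siglech, which defines these cells, had 1 to 13 counts in SLR14 and 1 to 8 counts in PBS tumours. The part of natural killer, mast and plasmacytoid dendritic cells in the granzyme levels was not tested.

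Leukocytes as a whole were read from genes shared by their lineages. Of 10 pan-leukocyte genes 0 passed in edgeR (4 at an unadjusted p under 0.05, 0 by DESeq2 and limma voom), with a median log2 fold change of 0.14 and sums of 771 to 900 CPM in SLR14 and 635 to 776 CPM in PBS tumours, the smallest p being those of Itgb2 and Coro1a (edgeR adjusted p = 0.305 and 0.318). Coro1a passed without PBS 5 and SLR14 2 together (edgeR adjusted p = 0.00639). Of 10 B cell and plasma cell genes 5 were tested and 0 passed (edgeR; 1 at an unadjusted p under 0.05, 0 by DESeq2 and limma voom). Cd22 had the second smallest p of these (log2 fold change -0.54, edgeR adjusted p = 0.529), after Sdc1 (0.22, edgeR adjusted p = 0.436), which epithelial cells also make and which supplied nearly all of the list's sum of 989 to 1082 CPM in SLR14 and 801 to 1001 CPM in PBS tumours.

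Genes whose pattern over the 10 tumours lay closest to the members were ranked by the root-mean-square difference of centred log2 CPM among 12492 tested genes with a mean count of at least 20. Closest to the mean of the CD3 chains were H2-Q6 (0.36), Zbp1 (0.38), Tnfsf13b (0.38), Oasl2 (0.44) and Gbp3 (0.47). Closest to the mean of the 4 cytotoxic genes were Rsad2 (0.36), H2-T24 (0.36), Slfn1 (0.38), Peak1os (0.39) and Cyfip2 (0.40). Each of the 10 was itself higher in SLR14 tumours, with log2 fold changes from 1.38 for Gbp3 to 2.41 for Slfn1 (edgeR adjusted p up to 0.0425). The call was lost when 1 tumour was left out for 4 of them: H2-Q6 (PBS 1 or 3 or SLR14 1), Gbp3 (PBS 1 or 3 or SLR14 1, 3 or 5), Tnfsf13b (PBS 1 or 3 or SLR14 1, 3, 4 or 5) and Peak1os (any but SLR14 5), with edgeR adjusted p of at most 0.0604, 0.0842, 0.0959 and 0.138. Likeness over 10 tumours in 2 groups holds the difference between the groups and is given as a description. With a smaller prior count of 0.5 in the log, 3 of 5 genes stayed among the closest for either profile.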

How the data were processed

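Per the labels' protocols, polyadenylated RNA was sequenced from rRNA-depleted tumour RNA. The submitters' processing notes name the mm39 build, STAR, DESeq2 1.36.0 and Trim Galore 0.6.7. How reads were assigned to genes, with which annotation and whether by strand, is not given in the sources used here. Reads of overlapping or antisense genes could therefore not be told apart. The authors deposited raw counts per gene and a normalized signal, which is each tumour's counts over a single factor. All 18603 genes reach a signal of 5 in 3 or more tumours. The 74 genes with no symbol held 0.0295% of counts.

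Counts were filtered with filterByExpr (minimum count 10, by group), scaled with TMM and tested with edgeR 4.0.16 in R 4.3.3 (quasi-likelihood test, SLR14 against PBS, no covariate, Benjamini-Hochberg adjustment over all 15883 genes). The SE is the absolute log2 fold change over the square root of F. The test was checked on simulated counts that gave every gene the same dispersion. The check therefore does not cover sparse genes of wider spread, such as most members. Lengths per kb are union exons of GENCODE M21. Alternatives used DESeq2 1.42.0, limma 3.58.1, other factors and filters, a replicate block and tumours left out. No pair of tumours within a group was a duplicate: over 20 pairs, chi-square divided by its degrees of freedom ran from 8.15 to 146.

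The members and lists were chosen with earlier results of these data known. Of each list the text names the genes that passed, or else the 2 with the smallest p, and the 5 genes closest to each profile, beside others said to be named later or given as defining markers; 1 gene that the rule names is not reported here.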

Additional observations from a re-analysis of the deposited data

Results flagged for a closer look

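Of 90 sets of 5 tumours checked, 6 held a tumour far from the other 4 of its group, where chance gives about 1 in 20. Among the members, PBS 4 was highest for Cd3e at 0.569 CPM (others 0 to 0.159) and for Cd8a at 0.599 CPM (others 0.105 to 0.190), and PBS 2 for Gzmb at 0.476 CPM (others 0.113 to 0.139). Among other named genes, PBS 5 was highest for Themis at 89.8 CPM (others 58.8 to 66.0). SLR14 3 was lowest for Ly6c2, a monocyte gene, at 0.787 CPM (others 4.82 to 5.74), and SLR14 5 was lowest for Slfn1 at 3.92 CPM (others 7.98 to 9.62).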

How the results depend on the processing

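The 153 genes called became 407 in DESeq2, which tested 18584 and called each of the 153, and 78 with a replicate block, and ranged from 69 to 194 without 1 tumour (69 and 78 with PBS 1 or PBS 3 left out, and 77, 75 and 89 with SLR14 1, SLR14 3 or SLR14 4 left out). The 2 members called became 6 in DESeq2, 1 in limma voom (Cd3e), 0 with a filter of 1 CPM in 5 tumours, which left 1 member to test, and 0 without both PBS 5 and SLR14 2; they ranged from 0 to 2 without 1 tumour. Same-numbered tumours did not deviate together (r -0.20 to 0.11 across genes, 0 of 5 SLR14 tumours closest to their own number), so the block pairs nothing the design states, and with it Gzma and Gzmb were called, while Ctsc (adjusted p = 0.179), H2-Q6 (0.0643), Gbp3 (0.158), Tnfsf13b (0.181) and Peak1os (0.0552) were not. Of 115 recomputed member values 0 changed direction, 17 lost and 7 gained a call. Of 635 for other named genes, 47 lost and 12 gained a call and 4 changed direction, all for Kit: 0.10 in limma voom, 0.17 on the authors' normalized values, 0.11 with the block and 0.27 without PBS 4 (-0.36 to 0.27 when 1 tumour was left out). With a prior count of 0.5, 3 of the 5 genes closest to either profile stayed. The causes were not tested. At a depth where 3 counts are 0.0761 to 0.179 CPM, PBS values of every member but Cd4 and Gzma lay in part at or under that floor.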

Other observations

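Genes of helper and regulatory T cells were counted at the same low level as the CD3 chains and are named after their values were seen. Foxp3, the regulatory T cell factor, had 7, 2, 11, 5 and 35 counts in SLR14 tumours and 3, 4, 6, 8 and 1 counts in PBS tumours, with SLR14 5 highest, the tumour that was also highest for Cd8a and Cd3d. Icos, a costimulatory receptor, had 6 to 20 counts in SLR14 and 1 to 8 counts in PBS tumours. Ikzf3, the lymphocyte factor Aiolos, had 4 to 23 counts in SLR14 and 0 to 9 counts in PBS tumours. None of the 3 was tested in the main comparison, and with no filter none passed in edgeR (adjusted p = 0.440 for Foxp3, 0.169 for Icos and 0.151 for Ikzf3). DESeq2 called Ikzf3 (log2 fold change 2.40, adjusted p = 0.0245) and neither of the others.

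Ccr7, the homing receptor of naive T cells and of migrating dendritic cells, had 26 to 74 counts in SLR14 and 32 to 231 counts in PBS tumours, PBS 4 being highest, and did not pass (log2 fold change -0.98, SE 0.36, edgeR adjusted p = 0.324).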
